A study of Hordeum vulgare with 8 samples.

Results

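MLOC_75306.1, MLOC_75307.1, MLOC_75308.3 and MLOC_75309.1 are barley transcripts with consecutive identifiers. They were chosen by these identifiers, with earlier results of these data known. The study lists all 4 among its genes with SNPs, so polymorphic sites in them were known of beforehand. Every listed site in them was taken whatever the outcome of the filter. The deposited table lists 140560 sites in 40344 transcripts, of which 21 sites fell in these 4 transcripts. The sites came from RNA of shoot apices of a pair of near isogenic lines (NILs) of barley (Hordeum vulgare), which the labels describe as NILs in cv. Morex. They came from a heterogeneous inbred family of a population bred from cv. Morex and several wild barleys, so both lines also share wild barley segments outside the compared region, among them the wild allele of the row-type gene vrs1. Line e35RM had long awns and carried the Morex allele of the awn length QTL AL7.1. Line e35RD had short awns and carried the allele of the wild barley HID382 in a region that the submitters place at 132.01 to 134.21 cM of the POPSEQ map. Both lines descend from a single recombinant family, DM1-e35R, so each allele is represented by 1 line. Greenhouse plants were kept at 22 °C for a day of 16 h and at 18 °C for a night of 8 h. Apices were taken at Waddington stage 5.5, when awns begin to emerge, with 10 apices in a pool and 4 libraries per line.

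Reads of all 4 libraries of a line were combined in 1 column of the table. No value therefore has a replicate error, and no difference could be compared with the spread between libraries. For every site the table holds a call per line, how many reads showed each allele, how many reads remained once duplicates were removed (read depth), and how sure the caller was of the call. This last value, the genotype quality, is phred-scaled and does not exceed 99. Total depth was similar, with 2050613 reads for e35RM and 2059680 for e35RD counted over the sites, and a called site had a median of 10 reads in either line. The table holds variant sites and no expression values, so the labelled tissue could not be checked against marker genes.

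Awns are long extensions of the lemma, the outer bract of a grass floret, and they contribute photosynthate to the grain. A NIL pair separates the effect of a small chromosome segment from that of the rest of the genome, and within the segment every expressed gene can carry sequence differences by linkage alone. MLOC_75307.1 is annotated as a Zim17-type zinc finger protein. In yeast, Zim17 is a zinc-binding partner of the mitochondrial Hsp70 chaperone, and the DNL zinc finger is the domain shared by this family. MLOC_75308.3 is annotated as a protein with a DUF616 domain, a family that was named when its function was unknown. MLOC_75309.1 is annotated as an unknown protein. MLOC_75306.1 is annotated as an ARM repeat protein, and ARM repeats are tandem helical repeats that commonly serve as surfaces for binding other proteins.

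All 4 transcripts belong to the high confidence gene set. MLOC_75307.1, MLOC_75308.3 and MLOC_75309.1 are placed at 134.207 cM on chromosome 7H of the POPSEQ map. This lies inside the region of 132.01 to 134.21 cM that differs between the NILs. MLOC_75306.1 has no position on that map. The best rice hits of the 3 placed transcripts, in this order, are the neighbouring loci LOC_Os06g50870.1, LOC_Os06g50860.1 and LOC_Os06g50850.1. The next rice loci on either side, LOC_Os06g50840.1 and LOC_Os06g50880.1, are the best hits of the barley transcripts AK367995 and MLOC_181.1, which have the same map position. Sites are named by the reference base, the position from the first base of the transcript, and the other base. These are positions in a transcript and not on a chromosome, and the reference base is that of the barley gene set, which the study takes as that of cv. Morex.

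MLOC_75307.1, MLOC_75308.3 and MLOC_75309.1 differed between the NILs at 13 sites, and at each of them e35RD carried the non-reference base. MLOC_75306.1 gave no usable site, although the study lists it among its genes with SNPs. In detail, 16 of the 21 listed sites passed the filter, and each of these 16 was covered by 5 or more reads per line. A site was counted as polymorphic when the lines had opposite homozygous calls. Of the 16 sites, 13 were polymorphic, 3 were reference in both lines, and 0 were heterozygous. Among all sites where both lines were homozygous, 0.479% were polymorphic, and 0.307% were polymorphic with the other base in e35RD. By transcript the share was 1.01% of those with such a site. All 3 members with a usable site were polymorphic, and MLOC_75306.1 is outside this count. Within the QTL region the share was far higher. Of the transcripts that the study lists there, 25 had a usable site with homozygous calls in both lines, and 15 of the 25 were polymorphic, the 3 members included, with 52 polymorphic sites in all. Polymorphic transcripts were thus common in the region, and the counts of the members describe their calls. The NILs had been selected to differ at AL7.1. Sites in a transcript are linked, and those close together can be covered by the same reads.

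MLOC_75307.1, the Zim17-type gene, had 4 polymorphic sites over 549 bases. C173T was the deepest site of the 4 transcripts. All 44 reads of e35RM showed the reference base here, and all 52 reads of e35RD the other base. At G453T these numbers were 24 and 29 reads. At G609C they were 38 and 34 reads, and at A721G 22 and 25 reads. No read at these sites carried the allele of the other line. With 0 of 52 reads at C173T, the data allow a share of the reference base in e35RD of up to 5.77%, and with 0 of 25 reads at A721G up to 12%. G609C is annotated inside the zinc finger domain and as synonymous. C173T and A721G are annotated as changing the amino acid, and carry no domain annotation.

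MLOC_75308.3, the DUF616 gene, also had 4 polymorphic sites, which lay in 2 groups 864 bases apart. At T206C, e35RM had 22 reads, all of the reference base, and e35RD 28 reads, all of the other base. C252T, 46 bases further, had 28 and 34 such reads. Towards the other end of the listed range, T1116G had 31 and 37 reads. At A1266G, the reference base was found in 40 of 41 reads of e35RM and the other base in 33 of 34 reads of e35RD. A read with the opposite allele was thus found once in each line at this site. The share of non-reference reads in e35RM was 2.44% (95% Clopper-Pearson interval 0.0617 to 12.9%), and that of reference reads in e35RD was 2.94% (0.0744 to 15.3%). T206C is annotated as changing the amino acid and the other sites as synonymous. T1116G is annotated inside the DUF616 domain.

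MLOC_75309.1, the unknown protein, had 5 polymorphic sites within 364 bases, more than any other of the 4 transcripts. The numbers of reference reads in e35RM and of non-reference reads in e35RD were 28 and 30 at T75C, 18 and 28 at G147C, and 19 and 29 at A180G. G147C and A180G lie 33 bases apart. At T438C these numbers were 24 and 38. At A307G, 38 of 39 reads of e35RM and 40 of 41 reads of e35RD carried the allele of their line, so that again 1 read per line had the opposite base. A307G is annotated as changing the amino acid and the other sites of this transcript as synonymous.

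**Figure D1:**
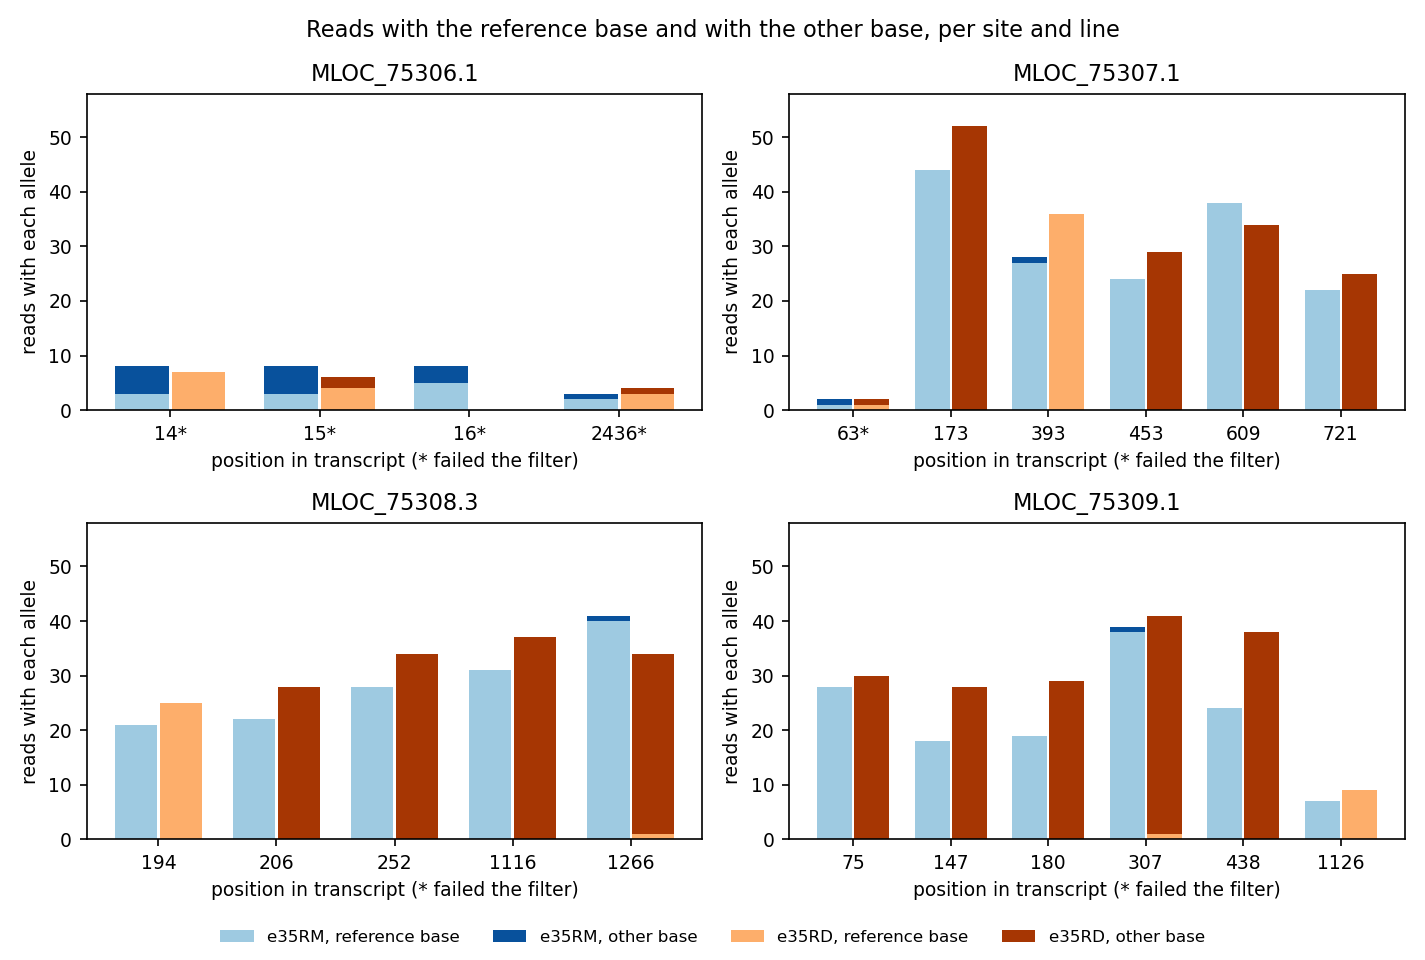
Reads with the reference base (light) and with the other base (dark) at every listed site of the 4 transcripts, for e35RM (blue) and e35RD (orange); the x axis gives the position in the transcript in bases and the y axis the number of reads, pooled over 4 libraries per line. At 13 sites of 3 transcripts the bars are light in e35RM and dark in e35RD, whereas MLOC_75306.1 has at most 8 reads per line. It shows both alleles in e35RM at every listed site, and in e35RD at C15T and A2436T.

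Over the 13 polymorphic sites, 2 of 378 allele reads of e35RM (0.529%) were non-reference and 2 of 439 allele reads of e35RD (0.456%) were reference. A read that covers several sites is counted at each of them, so no interval is given for these sums. At usable sites where both lines had homozygous calls, reads with an allele other than the called one made up 0.700% in e35RM and 0.666% in e35RD. These shares include sites that were reference in both lines, which the shares of the members leave out, so the sets are not alike. The discordant reads at the 13 sites all lay at A1266G and A307G, the deepest polymorphic sites of MLOC_75308.3 and MLOC_75309.1. Outside these 13 sites, T393C of MLOC_75307.1, called reference in both lines, had 1 non-reference read in e35RM.

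Allele reads were compared directly as well. Fisher's exact test, two-sided, was run on the reference and non-reference reads of the lines at all 39013 usable sites of the deposited data, and p-values were adjusted together by the Benjamini-Hochberg method. Sites counted as called when the adjusted p was under 0.05 and non-reference reads made up no more than 0.1 of one pool and no less than 0.9 of the other. Such sites were 0.128% of those tested, or 50, and 13 of the 50 were the polymorphic sites of MLOC_75307.1, MLOC_75308.3 and MLOC_75309.1. Adjusted p-values of the Fisher's exact test ran from 6.0e-25 at C173T to 3.5e-10 at G147C. The share of non-reference reads differed by 100 percentage points in the median over the 16 usable sites. The test compares the sequenced pools and not plants. It is no independent evidence of a difference, since the NILs were selected to differ in this region.

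Depth at these sites was higher than at the polymorphic sites of the whole table, but this was not particular to the members. The lower of the depths of both lines had a median of 28 reads and a minimum of 18 at the 13 sites, and a median of 8 reads at the 159 polymorphic sites of the table. The lower genotype quality had a median of 78 and a minimum of 54, against a median of 6 in the table. The 13 sites are part of the 159, and the values are given as a description. The neighbours by rice hit were as deep. Polymorphic sites of AK367995 had 27 to 61 reference reads in e35RM and 39 to 55 non-reference reads in e35RD. The polymorphic site of MLOC_181.1 had 44 and 40 such reads.

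MLOC_75306.1, the ARM repeat gene, was covered by few reads. Its 4 listed sites all failed the filter, 3 of them as members of a cluster of SNPs and 1 for low quality. T14C, C15T and C16G are adjacent bases near the 5′ end. The study lists this transcript among its genes with SNPs, with a change from C to T at position 16. The deposited sites hold C15T and C16G instead, and the deposited values are used here. At T14C, 5 of 8 reads of e35RM carried the non-reference base and e35RD had 7 reference reads. At C15T, 5 of 8 reads of e35RM and 2 of 6 allele reads of e35RD were non-reference. The table gives opposite homozygous calls at both sites, with e35RM as the non-reference line, which is the reverse of the direction at the 13 sites. In e35RM, however, 37.5% of the reads at either site carried the reference base (8.52 to 75.5%), and the genotype qualities were 6 and 3. In e35RD the quality was 3 at both sites. At C16G, 3 of 8 reads of e35RM were non-reference with a homozygous reference call, and e35RD had no call. At A2436T, 2420 bases downstream, each line had a depth of 4 reads with 1 non-reference read, and e35RD was called heterozygous.

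Low genotype qualities at such depths were also found elsewhere in the table, but in a minority of the calls. At passing sites where e35RM was homozygous and had a depth of 8 reads, the median genotype quality was 21, and 17.7% of 1214 calls had a quality of at most 6. For e35RD and a depth of 7 reads, these values were 18 and 16.7% of 1416 calls. Among sites removed by the cluster filter and covered by 5 or more reads per line, 292 had opposite homozygous calls. At 76.4% of the 292 the lower genotype quality was at most 6, and e35RM was the non-reference line at 124 of them. The same filter had also removed sites of AK367995, where 7 such sites had a lower genotype quality of at least 63 and the non-reference base in e35RD.

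**Figure D2:**
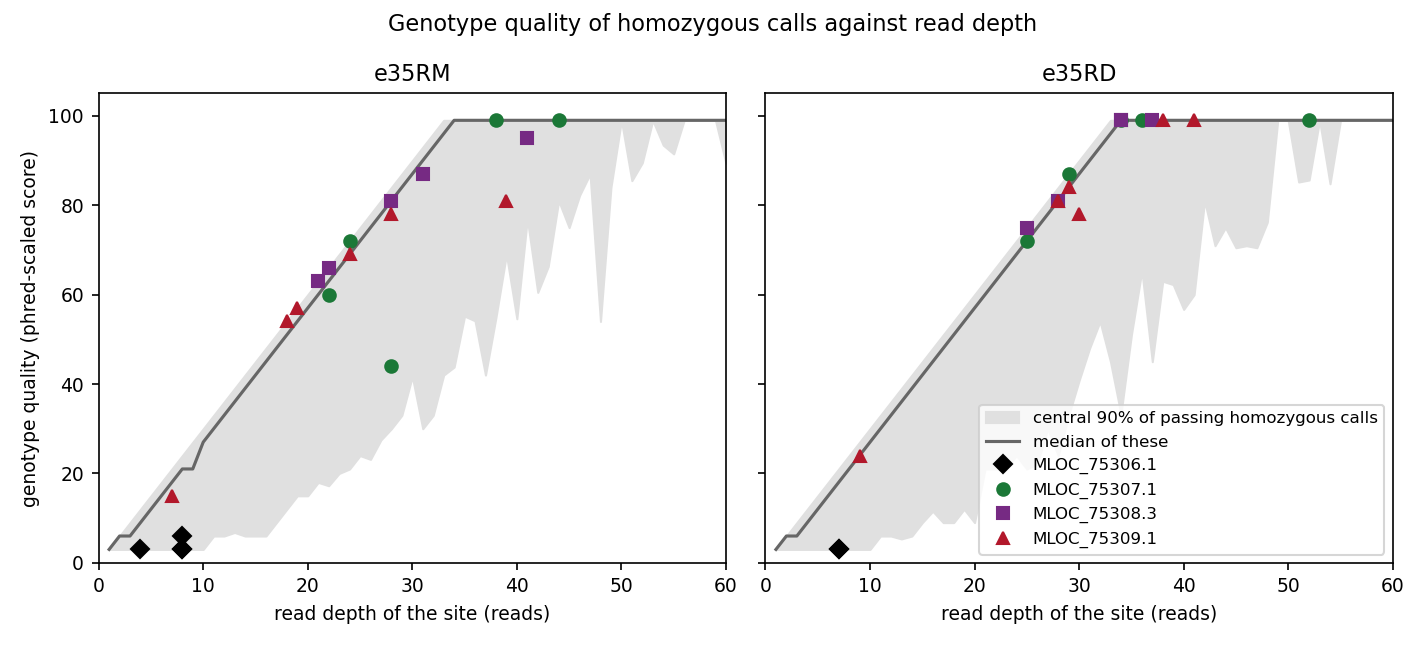
Genotype quality of homozygous calls (y axis, phred-scaled score) against read depth of the site (x axis, reads) in e35RM and e35RD; the grey line and band are the median and the central 90% of passing homozygous calls at each depth in the whole table, and symbols are the sites of the 4 transcripts, including those that failed the filter. Sites of MLOC_75306.1 lie at qualities of 3 and 6, and polymorphic sites of the other transcripts at 54 or more.

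Besides A63T, all listed sites of MLOC_75307.1, MLOC_75308.3 and MLOC_75309.1 passed the filter. A63T in MLOC_75307.1 failed the filter for clusters and was called heterozygous in both lines, at a depth of 2 reads in e35RM and 3 in e35RD. The next listed site, 110 bases downstream, is C173T with 44 and 52 reads. The remaining 3 sites were reference in e35RM and e35RD alike. They were T393C in MLOC_75307.1, with 27 reference reads and 1 other read in e35RM and 36 reference reads in e35RD, G194A in MLOC_75308.3, with 21 and 25 reference reads, and G1126T in MLOC_75309.1, with 7 and 9 reference reads. G194A lies 12 bases from the polymorphic site T206C. Such sites made up 32.0% of the sites at which both were homozygous, and why the table lists them cannot be read from the columns of the NILs.

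The 13 changes comprised 9 transitions and 4 transversions, the latter being G453T, G609C, T1116G and G147C. Among 22547 sites of the table with a single non-reference base that was homozygous in at least 1 line, 66.1% were transitions. Counted from the first base of the transcript, 9 of the 13 sites fell on the third position of a codon, and these 9 are the sites annotated as synonymous. The 4 others, C173T, A721G, T206C and A307G, fell on the first or second position and are annotated as changing the amino acid. In MLOC transcripts as a whole, 48.2% of 10451 non-reference sites fell on the third position when counted in this way. Their reading frames were not known here, so the share for the table is a rough reference.

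Depth at the listed sites, after removal of duplicates, stood in for transcript abundance, and the mean depths of the NILs differed by less than 1.5-fold. The paper's own expression analysis kept duplicates and had biological replicates. It did not name these transcripts among the genes that differed between the NILs, and the paper mentions high variation between replicates. MLOC_75307.1 had a mean depth of 31.2 reads in e35RM (22 to 44 over 5 sites) and 35.2 reads in e35RD (25 to 52), a log2 ratio of e35RM over e35RD of −0.17. MLOC_75308.3 had 28.6 reads (21 to 41 over 5 sites) and 31.6 reads (25 to 37), a log2 ratio of −0.14. MLOC_75309.1 had 22.5 reads (7 to 39 over 6 sites) and 29.2 reads (9 to 41), a log2 ratio of −0.37. The depth ranges of the lines thus overlapped in all 3 transcripts. Depth was higher in e35RD at 14 of the 16 sites, with G609C and A1266G as the exceptions. Sites of a transcript share reads and are not independent measurements. In whole apices, a smaller share of cells with a transcript and less of it per cell cannot be told apart.

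Counting error was wide at single sites. At C173T, the deepest site of MLOC_75307.1, 45.8% of 96 reads came from e35RM (95% Clopper-Pearson interval 35.6 to 56.3%). The share was 54.7% of 75 reads at A1266G of MLOC_75308.3 (42.7 to 66.2%), and 48.8% of 80 reads at A307G of MLOC_75309.1 (37.4 to 60.2%). The lowest share among the sites of MLOC_75309.1 was 38.7% of 62 reads at T438C (26.6 to 51.9%). Each of these intervals includes 50%, so a difference in depth was not detectable at any of these sites. The interval at A307G corresponds to a log2 ratio from −0.74 to 0.60, and covers counting error only.

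For comparison, 7432 transcripts with reads in both lines reached a mean depth of 20 reads or more in one of them. The log2 ratio had a median of −0.01 over these transcripts, with 95% of them between −0.41 and 0.39. Of these transcripts, 14.0% had a lower ratio than MLOC_75307.1, 17.9% a lower ratio than MLOC_75308.3 and 3.22% a lower ratio than MLOC_75309.1. A ratio past 1.5-fold in either direction was found for 1.52% of them, and for 0 of the 3 members. MLOC_75306.1 had no passing site, and its depth of 4 to 8 reads at failed sites of e35RM was not used for a ratio. No test of the ratios was possible without separate libraries.

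**Figure D3:**
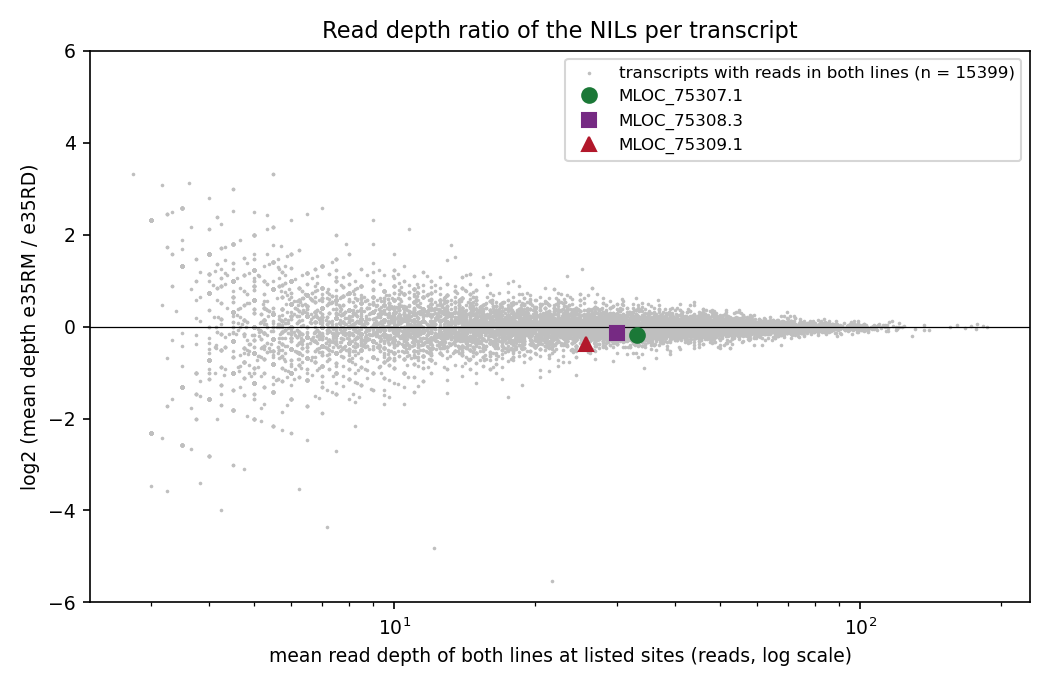
Log2 ratio of mean read depth, e35RM over e35RD (y axis), against mean read depth of both lines on a log scale (x axis, reads), with 1 grey point for each of 15399 transcripts with reads in both lines. MLOC_75307.1, MLOC_75308.3 and MLOC_75309.1 lie at −0.17, −0.14 and −0.37, inside the range from −0.41 to 0.39 that holds 95% of the transcripts with 20 or more reads on average in one of the lines.

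The transcripts next in rice order showed the same allele pattern. AK367995, annotated as a FYVE-type zinc finger protein, had 5 polymorphic sites with 27 to 61 reference reads in e35RM and 39 to 55 non-reference reads in e35RD. MLOC_181.1, annotated as a DDB1- and CUL4-associated factor with WD40 repeats, had 1 polymorphic site, T1386G, with 44 and 40 reads. No read at these 6 sites carried the opposite allele. Their log2 depth ratios were −0.02 for AK367995 and 0 for MLOC_181.1, on the same scale as above. The ratios of the 3 members were lower than both, and these differences were not tested.

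Likeness to the 3 genes was measured as the median difference between the lines in the share of non-reference reads, over transcripts with at least 3 usable sites. Of 4909 other transcripts, 5 had the same median difference of 100 percentage points as the members. The 3 with the most polymorphic sites and then the highest depth were AK355215 and AK374634, with 6 polymorphic sites each, and AK367995. This measure rests on 1 pooled column per line.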

How the data were processed

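RNA of 8 libraries, 4 per NIL, had been sequenced with single-end reads. The authors trimmed the reads and used Bowtie2 (version 2.1.0) to place them on barley gene models of high and low confidence. Picard (version 1.110) removed duplicates, which lowers high depths most. The authors then called variants with the GATK UnifiedGenotyper (version 3.1) and filtered them for strand bias and quality by depth. A filter for clusters of SNPs appears in the table, and its settings are not given in the sources used here. Read depth was deposited as an unnormalized count for every site in every line, and genotype quality is a score given by the authors' caller. Genotype calls and reads per allele are deposited as text. A spreadsheet program had turned calls into dates, 15 of them in the 4 transcripts, and had dropped last zeros of allele depths. Calls were turned back, and an allele depth was given the zeros that brought the allele sum closest to the read depth, which was needed for 2 values. At all 16 usable sites the alleles then summed to the read depth. Decoding and the Fisher's exact test were tried on simulated allele reads that always summed to the read depth. Deposited allele reads can fall short of it, as at T1386G of MLOC_181.1 with 40 allele reads of 42 in e35RD. The simulation does not cover such sites. A further 5 columns of per-sample values, of a Morex sample, were not used.

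A usable site was a single-nucleotide site with a passing filter value and 5 or more reads in both lines. For depth ratios, 5 reads in either line were enough, and a missing call counted as 0 reads. Intervals are 95% Clopper-Pearson intervals and limits for a count of 0 are 3 counts of the total. Both cover counting error only. Calculations used Python 3.11.15, pandas 2.3.3 and scipy 1.17.1. The 4 transcripts, the comparison transcripts and the measures were chosen with earlier results of these data known. Named are the 4 transcripts, AK367995 and MLOC_181.1 as neighbours by rice hit, and the 3 transcripts most alike. Gene classes, map positions, rice hits and effects on the protein are annotations of the study's gene tables. Of the 4 identifiers, 0 matched the RefSeq gene table of the MorexV3 assembly, so no genome coordinates, gene symbols or flanking sequences are given. Alternatives were minimums of 1, 10 and 20 reads, minimums of 20 and 60 for the genotype quality, all filter values, insertions and deletions, allele shares in place of calls, other limits of these shares, and other forms of the depth ratio.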

Additional observations from a re-analysis of the deposited data

How the results depend on the processing

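Over all 25 counts recomputed under the alternatives, the results stayed within a factor of 1.5. All 15 recomputed depth ratios stayed inside the counting interval of the deepest site, but most were no separate check. A read minimum in both lines, all filter values and scaling to the median ratio left each ratio unchanged. The ratio of the deepest site lies inside its own interval by construction. Only the median ratio per site could have fallen outside. It was −0.24 for MLOC_75307.1, −0.25 for MLOC_75308.3 and −0.45 for MLOC_75309.1. The intervals include both signs. The 13 polymorphic sites became 11 when 20 reads, or a genotype quality of 60, were asked of both lines, and 15 with all filter values, which added T14C and C15T and brought MLOC_75306.1 in as the fourth polymorphic transcript. The allele depth test gave 13 sites in these transcripts under all alternatives except a minimum of 20 reads, with 11. It called 67 sites of the table with all filter values and 37 with a minimum of 20 reads, against 50. The log2 depth ratio ranged from −0.24 to −0.17 for MLOC_75307.1 and from −0.45 to −0.07 for MLOC_75309.1. For MLOC_75308.3 it ranged from −0.25 to 0.27, the positive value being that of the deepest site alone. No paired analysis was possible because the libraries of a line are pooled in 1 column, and for the same reason no library could be left out. Depth limits the statements on MLOC_75306.1, with at most 8 reads per line, as do its failed filter values and its mixed allele reads.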
